A study of Mus musculus with 28 samples.

Results

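The genes described here are 10 transcripts used as markers of injured kidney tubule: Havcr1, Lcn2, Spp1, Clu, Krt18, Krt20, Sox9, Cdkn1a, Vcam1 and C3. They were chosen by name, as the rows of the count table whose Ensembl identifier maps to these symbols, and 10 of 56748 genes in the table matched. All 10 passed the filter on low counts and stood among the 17573 genes tested. Polyadenylated RNA of whole mouse kidney had been sequenced from animals that differed in the aquaporin-3 gene (Aqp3) and in sex. The forms of Aqp3 were the mimetic of the acetylated lysine (Q), the mimetic of the deacetylated lysine (R) and the unaltered gene (WT). There were 5 libraries each of male Q, male R and male WT kidneys, 5 of female Q, 3 of female R and 5 of female WT. Per the labels no animal had been treated, so none of the 6 groups carries a kidney injury by design, and the kidneys had been collected in the early light phase. Age, strain and how the alleles were made are not given in the sources used here.

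An injured tubule cell loses its transport proteins, spreads over the bared basement membrane and either rebuilds a mature epithelium or stays in an inflammatory, dedifferentiated state. Along this course it switches on surface receptors and secreted proteins that reach the urine (Havcr1, Lcn2, Spp1, Clu). It also switches on keratins and the progenitor factor Sox9, the cell cycle inhibitor Cdkn1a, and adhesion and complement genes (Vcam1, C3). Several of them are also made without injury, Spp1 in the loop of Henle and distal tubule, Clu in distal segments, Krt18 in collecting duct and urothelium, and Krt20 in the surface cells of the urothelium.

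The promoters below are shown because Spp1, C3 and Havcr1 differed between the sexes in called comparisons and Krt20 was correlated with Spp1 and with urothelial genes. They are the 250 bases before the most upstream start of each gene in the RefSeq promoter table of GRCm38.p6, read along the gene's strand. Spp1 lies at chr5:104434861-104435110 on the plus strand, C3 at chr17:57228137-57228386 on the minus strand, Havcr1 at chr11:46739973-46740222 on the plus strand and Krt20 at chr11:99438154-99438403 on the minus strand. Capitals mark the letters TATAAA.
Spp1: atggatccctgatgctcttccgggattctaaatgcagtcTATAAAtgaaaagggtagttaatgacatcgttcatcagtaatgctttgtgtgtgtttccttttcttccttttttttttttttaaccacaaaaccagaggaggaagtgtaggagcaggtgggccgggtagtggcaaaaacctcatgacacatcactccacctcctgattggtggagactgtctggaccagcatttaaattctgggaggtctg
C3: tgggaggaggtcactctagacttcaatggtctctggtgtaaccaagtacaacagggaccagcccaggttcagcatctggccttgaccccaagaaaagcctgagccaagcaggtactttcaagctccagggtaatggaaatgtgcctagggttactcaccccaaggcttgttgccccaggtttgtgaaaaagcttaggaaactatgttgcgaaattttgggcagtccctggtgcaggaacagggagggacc
Havcr1: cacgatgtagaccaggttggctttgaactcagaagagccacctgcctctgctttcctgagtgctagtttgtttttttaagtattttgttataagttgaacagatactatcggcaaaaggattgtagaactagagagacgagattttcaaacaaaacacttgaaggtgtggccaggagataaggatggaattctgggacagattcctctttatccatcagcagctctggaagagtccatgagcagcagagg
Krt20: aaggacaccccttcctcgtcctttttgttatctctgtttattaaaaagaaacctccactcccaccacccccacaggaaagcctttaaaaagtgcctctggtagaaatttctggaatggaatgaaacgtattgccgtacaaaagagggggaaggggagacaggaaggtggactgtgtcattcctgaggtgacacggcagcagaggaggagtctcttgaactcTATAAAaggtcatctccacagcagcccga
The table held 11 starts for 7 of the 10 genes, and none for Clu, Vcam1 and Sox9. The letters TATAAA lay 29 bases before the Krt20 start and 211 bases before the Spp1 start, and in 2 of the 11 windows in all, against 12.4% of 32851 promoters. Of the other motifs searched on both strands, TGANTCA (AP-1), TTCNNNGAA (STAT), TGACGTCA (CRE) and a degenerate motif of NF-kB were in 0 of the 11 windows. All promoters held them in 6.75%, 7.02%, 1.55% and 4.11% of cases. These matches describe letters in the windows only.

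The libraries were deep, with 14825417 to 21403804 counts each, and the kidney identity of the tissue was clear. The 12 genes of a list for the differentiated proximal tubule summed to 14100 to 23300 CPM (counts relative to the library total, scaled by TMM), and no library group lacked any of them. Among the lists for other cells, the neutrophil list was nearly absent, at 0.484 to 3.46 CPM in all with up to 2 of its 6 genes at 0 in a group. In 2 libraries the profile stood apart, male Q replicate 4 and female Q replicate 5, with 7.74% and 3.94% of counts from mitochondrial genes, against 9.56 to 12.1% in the others. The library labelled female WT replicate 2 had 0.515 CPM of Xist, where the remaining 12 females had 214 to 435 CPM, and 0.468 CPM of 4 Y-linked genes, against 121 to 164 CPM in males. Calls between the sexes that changed when these libraries were left out are given both ways with the marker concerned. Gene counts hold no information on the edited lysine codon, and genotypes were not checked. The labels do not say that libraries came from separate animals, so the p-values measure the spread between libraries, which may be technical in part.

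Compared per length of exon, the markers covered a wide span of levels. Median levels over the 28 libraries, in CPM per kb of exon, were 398 for Spp1, 62.7 for Clu and 15.8 for Krt18. The ranges of these 3 genes did not overlap each other or the next gene. C3 followed at 3.1, Cdkn1a at 2.66, Vcam1 at 1.25, Lcn2 at 1.14 and Havcr1 at 0.558 CPM per kb, and Krt20 at 0.207 and Sox9 at 0.174 were lowest. From C3 downward each gene's range overlapped that of the next, so this part of the order is not set apart by the spread. Spp1 thus stood far above the rest, while Havcr1, Krt20 and Sox9 rested on few counts. Havcr1 had 2 to 101 counts per library, Krt20 0 to 42 and Sox9 1 to 30, against 6763 to 34060 for Spp1.

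**Figure D1:**
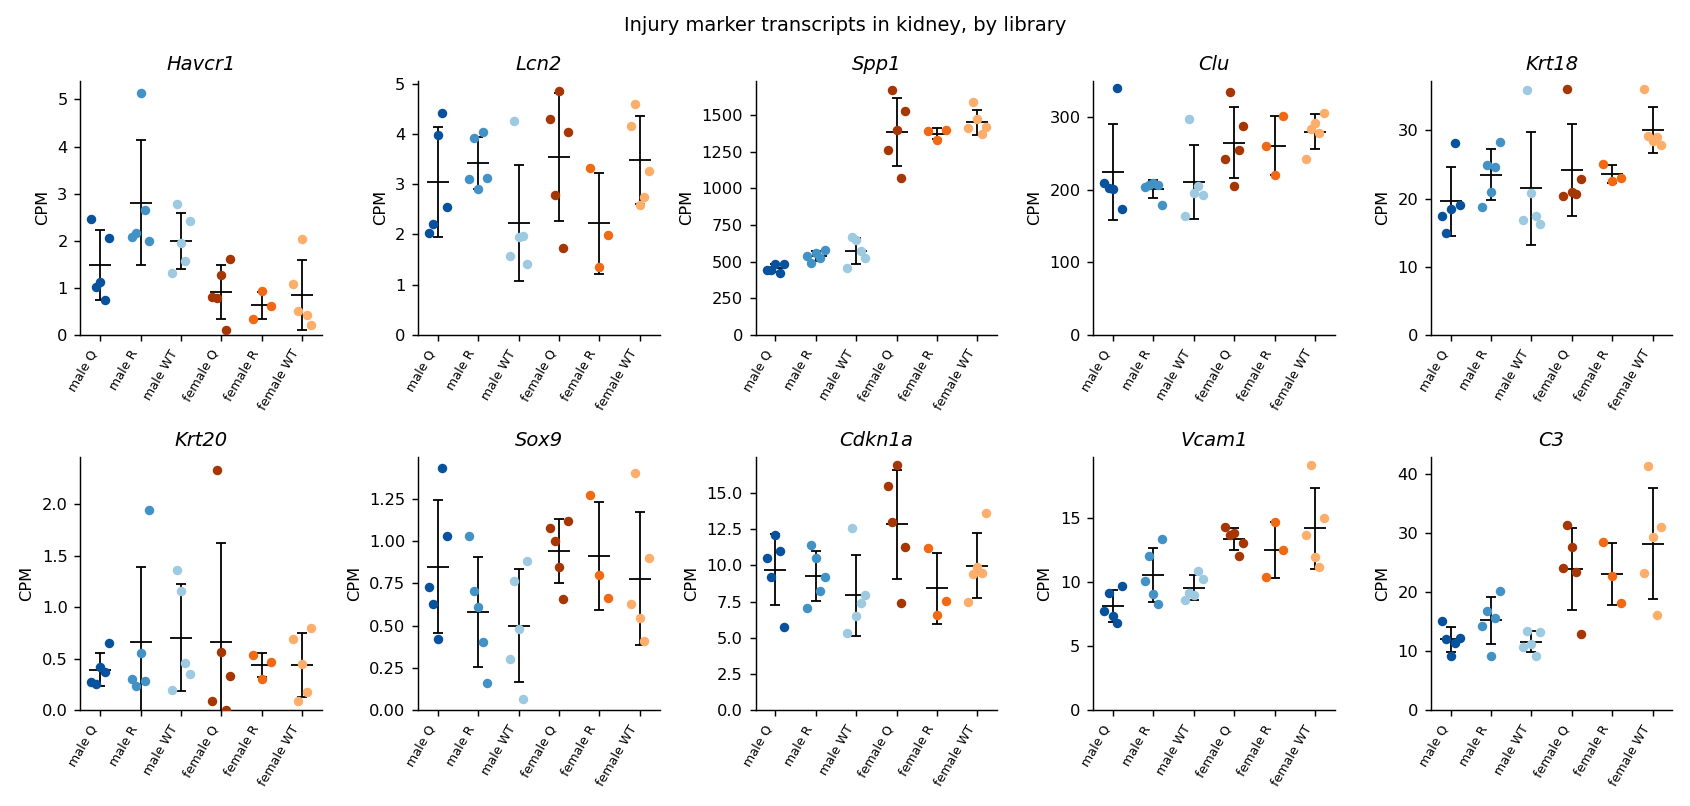
Level of each injury marker in CPM (y axis, linear from 0), with 1 point per library, a line at the group mean and bars of 1 SD, for Q, R and WT kidneys of males and then of females. The 15 male points of Spp1 lie between 421 and 667 CPM, below all 13 female points at 1070 to 1670 CPM, while most other markers overlap between groups.

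Havcr1 (ENSMUSG00000040405, chromosome 11) encodes KIM-1, a receptor for phosphatidylserine that appears on injured proximal tubule cells and lets them engulf dead neighbours. It had 2.47, 1.01, 1.12, 0.747 and 2.06 CPM in male Q kidneys, 2.07, 2.17, 5.14, 2.65 and 1.99 CPM in male R kidneys, and 1.31, 2.77, 1.94, 1.57 and 2.41 CPM in male WT kidneys. Female Q kidneys had 0.795, 0.778, 1.27, 0.101 and 1.62 CPM, female R kidneys 0.342, 0.92 and 0.617 CPM, and female WT kidneys 1.07, 0.515, 2.04, 0.41 and 0.201 CPM. Male R replicate 3 was the highest of all libraries, and every male R library lay above every female R library, while the sexes overlapped in Q and in WT. Havcr1 was the only marker higher in males in a called comparison. In R kidneys its log2 fold change of male over female was 2.18 (SE 0.596, edgeR adjusted p = 0.0119), a 4.53-fold difference. The call rests on 3 female libraries and on few counts, and it was lost without female R replicate 1 (1.88, edgeR adjusted p = 0.0876) and with no filter on low counts (2.19, adjusted p = 0.0512). The log2 fold change was 0.70 in Q (SE 0.487, edgeR adjusted p = 0.326) and 1.23 in WT (SE 0.483, adjusted p = 0.0813). The WT value was called without female WT replicate 3 (1.89, edgeR adjusted p = 0.0089), with DESeq2's Wald test (1.25, adjusted p = 0.0474) and with voom (1.69, adjusted p = 0.00925). In Q it was 1.17 without the 2 libraries that stand apart (edgeR adjusted p = 0.12). The difference between the sexes was not shown to depend on the R allele, since the test of R over WT in males minus that in females gave 0.95 (SE 0.763, edgeR adjusted p = 0.992). Between genotypes Havcr1 was -0.42 (SE 0.461) for Q over WT and 0.49 (SE 0.442) for R over WT in males, and 0.10 (SE 0.509) and -0.46 (SE 0.621) in females.

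Lcn2 (ENSMUSG00000026822, chromosome 2) encodes NGAL, a small secreted protein that binds the iron carriers of bacteria and rises in the distal nephron after injury. It had 2.02, 2.21, 3.98, 4.42 and 2.55 CPM in male Q kidneys, 3.1, 3.91, 2.9, 4.04 and 3.12 CPM in male R kidneys, and 1.56, 4.25, 1.94, 1.96 and 1.41 CPM in male WT kidneys. In females, Q kidneys had 4.3, 2.78, 4.86, 1.72 and 4.03 CPM, female R kidneys 3.32, 1.35 and 1.99 CPM, and female WT kidneys 4.16, 4.59, 2.59, 2.75 and 3.26 CPM. In male WT kidneys replicate 2 stood alone above the other libraries, and in every comparison of groups the ranges overlapped. Between the sexes in WT the overlap came from that library, as the other 4 males had 1.41 to 1.96 CPM and the females 2.59 to 4.59 CPM. Male over female, the log2 fold change was -0.22 in Q (SE 0.291, edgeR adjusted p = 0.638), 0.61 in R (SE 0.348, adjusted p = 0.272) and -0.65 in WT (SE 0.299, adjusted p = 0.147). Lcn2 was called lower in WT males without male WT replicate 2 (-1.01, edgeR adjusted p = 0.0157). With all libraries, voom also called it (-0.78, adjusted p = 0.0436), and DESeq2's Wald test did not (-0.64, adjusted p = 0.132). R over WT had a log2 fold change of 0.62 in males (SE 0.299, edgeR adjusted p = 1) and -0.63 in females (SE 0.347, adjusted p = 1). The test of this difference gave 1.25 (SE 0.459, 95% interval 0.30 to 2.21), and it was not called (edgeR adjusted p = 0.992). Without male WT replicate 2 the estimate for R over WT in males was 0.99 and that for Q over WT in males 0.82, against 0.45 with all libraries (edgeR adjusted p = 0.917).

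Spp1 (ENSMUSG00000029304, chromosome 5) encodes osteopontin, a secreted phosphoprotein that binds integrins and coats forming crystals in the urine. It had 441, 443, 482, 421 and 480 CPM in male Q kidneys, 536, 490, 561, 524 and 578 CPM in male R kidneys, and 459, 667, 645, 571 and 521 CPM in male WT kidneys. Among female kidneys, those of Q had 1260, 1670, 1400, 1070 and 1530 CPM, female R kidneys 1390, 1330 and 1400 CPM, and female WT kidneys 1410, 1590, 1470, 1370 and 1420 CPM. All 15 male libraries lay below all 13 female libraries, and this held within each genotype. The log2 fold change of male over female was -1.61 in Q (SE 0.108, edgeR adjusted p = 6.91e-13), -1.35 in R (SE 0.119, adjusted p = 5.7e-10) and -1.34 in WT (SE 0.107, adjusted p = 4.9e-11), or 0.327, 0.392 and 0.394 of the female level. Among males, the 5 Q libraries lay below the 5 R libraries, and 3 of the 5 lay below all 5 WT libraries. For Q over WT in males the log2 fold change was -0.34 (95% interval -0.55 to -0.12), which was not called (edgeR adjusted p = 0.831). The Spp1 value for Q over R in males was -0.25 (SE 0.105, edgeR adjusted p = 1), and in females Q over WT was -0.07 (SE 0.105, adjusted p = 1). R over WT was -0.09 in males (SE 0.105, edgeR adjusted p = 1) and -0.08 in females (SE 0.122, adjusted p = 1).

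Clu (ENSMUSG00000022037, chromosome 14) encodes clusterin, a secreted chaperone that binds misfolded proteins and cell debris. It had 209, 202, 201, 341 and 173 CPM in male Q kidneys, 204, 207, 210, 207 and 179 CPM in male R kidneys, and 164, 298, 195, 205 and 193 CPM in male WT kidneys. Female Q kidneys had 242, 335, 205, 255 and 288 CPM, female R kidneys 260, 221 and 302 CPM, and female WT kidneys 242, 284, 292, 278 and 306 CPM. Male Q replicate 4 and male WT replicate 2 were the 2 males above 250 CPM, and the 5 male R libraries lay below the 3 female R libraries. Male over female, the log2 fold change was -0.24 in Q (SE 0.154, edgeR adjusted p = 0.296), -0.37 in R (SE 0.176, adjusted p = 0.167) and -0.41 in WT (SE 0.154, adjusted p = 0.0656). Without the 2 libraries that stand apart the Clu difference was called lower in males in Q (-0.40, edgeR adjusted p = 0.0385) and in WT (-0.40, adjusted p = 0.0194). Both of these libraries are from Q kidneys, and the WT value itself hardly moved. With voom Clu was called lower in males in WT (-0.47, adjusted p = 0.00168) and R (-0.41, adjusted p = 0.0157), but not in Q (-0.28, adjusted p = 0.0708). DESeq2's Wald test called it in none of the genotypes. Between genotypes Clu was 0.09 for Q over WT and -0.06 for R over WT in males (SE 0.154 for both), and -0.08 (SE 0.154) and -0.10 (SE 0.178) in females.

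Krt18 (ENSMUSG00000023043, chromosome 15) encodes a type I keratin that pairs with Krt8 in simple epithelia. Male Q kidneys had 17.5, 14.9, 18.5, 28.2 and 19 CPM, male R kidneys 18.8, 24.9, 21, 24.6 and 28.3 CPM, and male WT kidneys 16.9, 36.0, 20.8, 17.5 and 16.3 CPM. In females, Q kidneys had 20.4, 36.1, 20.9, 20.6 and 22.8 CPM, female R kidneys 25.1, 22.6 and 23 CPM, and female WT kidneys 36.1, 29.2, 28.5, 29 and 27.8 CPM. A library with about 36 CPM stood above its group in male WT, female Q and female WT, and the group ranges overlapped between the sexes. The 3 female R libraries, at 22.6 to 25.1 CPM, lay below the 5 female WT libraries, at 27.8 to 36.1 CPM, but the log2 fold change of R over WT in females, -0.35 (SE 0.219, edgeR adjusted p = 1), was not called. Q over WT was -0.32 in females (SE 0.187, edgeR adjusted p = 1) and -0.13 in males (SE 0.19, adjusted p = 0.941), and R over WT in males was 0.13 (SE 0.189, adjusted p = 1). The log2 fold change of male over female in WT was -0.49 (SE 0.189, edgeR adjusted p = 0.0771) and was called without male WT replicate 2 (-0.75, adjusted p = 0.00163). With all libraries, voom also called Krt18 lower in WT males (-0.61, adjusted p = 0.00167), and DESeq2's Wald test did not (-0.48, adjusted p = 0.0715). Krt20 (ENSMUSG00000035775, chromosome 11), a keratin of the urothelial and gut surface that appears in strongly injured tubules, had 0.281, 0.253, 0.425, 0.373 and 0.65 CPM in male Q kidneys. It had 0.304, 0.236, 0.56, 0.288 and 1.94 CPM in male R kidneys and 0.201, 1.36, 1.16, 0.458 and 0.353 CPM in male WT kidneys. Among female kidneys, those of Q had 0.0935, 2.33, 0.566, 0 and 0.336 CPM, female R kidneys 0.537, 0.307 and 0.474 CPM, and female WT kidneys 0.693, 0.0936, 0.448, 0.176 and 0.802 CPM. The highest Krt20 libraries were female Q replicate 2 and male R replicate 5, and no comparison of groups called the gene. Its intervals were wide, as for Q over WT, where males gave -0.82 (95% interval -2.40 to 0.77) and females 0.57 (-0.99 to 2.12), or in male over female, at -0.70 in Q (-2.29 to 0.88), 0.58 in R (-1.23 to 2.38) and 0.68 in WT (-0.87 to 2.23). With voom the male over female value in Q had the other sign, at 0.90 (adjusted p = 0.461). A count of 0, as in female Q replicate 4, allows up to 3 counts for sampling error alone.

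Sox9 (ENSMUSG00000000567, chromosome 11), a transcription factor of renal progenitors that regrowing tubule cells switch on, was the scarcest marker per length. It had 0.73, 0.631, 0.425, 1.43 and 1.03 CPM in male Q kidneys, 1.03, 0.707, 0.611, 0.404 and 0.161 CPM in male R kidneys, and 0.302, 0.767, 0.484, 0.0654 and 0.881 CPM in male WT kidneys. Female Q kidneys had 1.08, 1.0, 0.849, 0.659 and 1.12 CPM, female R kidneys 1.27, 0.797 and 0.664 CPM, and female WT kidneys 0.63, 1.4, 0.548, 0.41 and 0.903 CPM. All groups overlapped, and male Q replicate 4 was the highest library. For Q over WT its log2 fold change in males was 0.75 (95% interval -0.19 to 1.69, edgeR adjusted p = 0.917), and 0.25 in females (-0.63 to 1.13, adjusted p = 1). The male value was 0.48 without male Q replicate 4 (edgeR adjusted p = 1) and ranged up to 1.04 over the fits that left out 1 library. R over WT was 0.21 in males and 0.21 in females. Male over female, Sox9 was -0.15 in Q (edgeR adjusted p = 0.846), -0.65 in R (adjusted p = 0.442) and -0.65 in WT (adjusted p = 0.373), and the WT value was -0.31 without female WT replicate 2 (adjusted p = 0.76).

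Cdkn1a (ENSMUSG00000023067, chromosome 17) encodes p21, the cyclin-dependent kinase inhibitor through which p53 halts the cell cycle. It had 10.5, 9.22, 12.1, 11 and 5.75 CPM in male Q kidneys, 7.05, 11.4, 10.5, 8.25 and 9.19 CPM in male R kidneys, and 5.33, 12.6, 6.49, 7.39 and 7.93 CPM in male WT kidneys. In females, Q kidneys had 15.5, 13, 16.9, 7.4 and 11.3 CPM, female R kidneys 11.2, 6.56 and 7.54 CPM, and female WT kidneys 7.49, 9.41, 9.86, 9.48 and 13.6 CPM. In females, 4 of 5 Q libraries lay above all 3 R libraries and 2 of 5 lay above all WT libraries. For Q over R in females the log2 fold change was 0.60 (95% interval 0.05 to 1.15), which was not called (edgeR adjusted p = 0.998). Over both sexes Q over WT was 0.33 (SE 0.16, edgeR adjusted p = 0.92). R over WT was 0.23 in males (SE 0.229) and -0.24 in females (SE 0.264).

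Vcam1 (ENSMUSG00000027962, chromosome 3) encodes an adhesion molecule for leukocytes that endothelium makes in inflammation and that marks tubule cells which fail to mature after injury. It had 7.74, 9.15, 7.38, 6.84 and 9.76 CPM in male Q kidneys, 10.1, 12.1, 9.12, 8.3 and 13.4 CPM in male R kidneys, and 8.6, 9.2, 9.0, 10.9 and 10.3 CPM in male WT kidneys. Among female kidneys, those of Q had 14.3, 13.7, 13.9, 12.1 and 13.1 CPM, female R kidneys 10.4, 14.7 and 12.5 CPM, and female WT kidneys 13.7, 19.2, 12.0, 11.2 and 15 CPM. All males lay below all females in Q and in WT, and the sexes overlapped in R. Vcam1 was lower in males, at a log2 fold change of -0.71 in Q (SE 0.145, edgeR adjusted p = 0.000429) and -0.57 in WT (SE 0.143, adjusted p = 0.00498), and was -0.24 in R (SE 0.164, adjusted p = 0.385). The highest library was female WT replicate 2, and without it the WT value was -0.43 (edgeR adjusted p = 0.0377). Among males, Q over R was -0.38 (SE 0.146, edgeR adjusted p = 1), Q over WT -0.23 (SE 0.147) and R over WT 0.15 (SE 0.144), and among females Q over WT was -0.09 (SE 0.141) and R over WT -0.19 (SE 0.164).

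C3 (ENSMUSG00000024164, chromosome 17) encodes the central component of complement, made by liver and also by tubule cells. It had 15.1, 12.1, 9.29, 11.4 and 12.3 CPM in male Q kidneys, 14.3, 16.8, 9.17, 15.7 and 20.2 CPM in male R kidneys, and 10.8, 13.5, 11.2, 9.28 and 13.3 CPM in male WT kidneys. Female Q kidneys had 24.1, 31.4, 27.7, 23.5 and 12.9 CPM, female R kidneys 28.5, 22.7 and 18.1 CPM, and female WT kidneys 23.3, 41.3, 29.3, 16.2 and 31.0 CPM. The sexes did not overlap in WT, and in Q the overlap came from female Q replicate 5, a library that stands apart. C3 was lower in males, at a log2 fold change of -0.99 in Q (SE 0.225, edgeR adjusted p = 0.00155) and -1.28 in WT (SE 0.225, adjusted p = 0.000122), or 0.503 and 0.411 of the female level. In R the value was -0.60 (SE 0.252, adjusted p = 0.115), and the R over WT value in males minus that in females was 0.68 (SE 0.34, edgeR adjusted p = 0.992). Without the 2 libraries that stand apart the Q value was -1.12, and without female WT replicate 2 the WT value was -1.09 (edgeR adjusted p = 0.000711). Between genotypes C3 was 0.05 (SE 0.228) for Q over WT and 0.39 (SE 0.226) for R over WT in males, and -0.24 (SE 0.217) and -0.29 (SE 0.253) in females.

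Between genotypes, the edgeR quasi-likelihood test called 0 of the 10 markers in each of 9 comparisons, and it called 0% of the 17573 genes in each. At an unadjusted p under 0.05 the count was 1 of 10 in Q against WT in males, where 5.1% of all genes reached it, and 1 of 10 in R against WT in males (2.13% of all genes). It was 2 of 10 in Q against R in males (4.1%), 1 of 10 in Q against R in females (3.03%), and 0 of 10 in Q against WT (2.94%) and in R against WT (1.92%) in females. Over both sexes it was 2 of 10 in Q against WT (4.72%), 0 of 10 in R against WT (1.34%) and 0 of 10 in Q against R (3.93%). DESeq2's Wald test and limma voom with quality weights also called 0 markers in each genotype comparison, and of all genes they called at most 3 and 2. The median log2 fold change of the 10 markers was -0.04 for Q over WT in males and -0.02 in females, and 0.18 for R over WT in males and -0.21 in females, while the medians of all tested genes lay within 0.006 of 0. Q over R in females was positive for 10 of 10 markers with a median of 0.08, against 49.5% of all tested genes, and their values share the same 8 libraries. The 2 tests of a genotype effect that differs between the sexes also called 0 of 10 markers (0% of all genes), with 0 of 10 for Q (3.11%) and 1 of 10 for R (2.82%) at an unadjusted p under 0.05.

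Between the sexes, more markers were called than between genotypes, and so were more of all genes. The called counts below are of 10 markers and lie close to the shares of all genes, so they do not single out the markers. In WT kidneys 3 of 10 were called, Spp1, Vcam1 and C3, all lower in males, where 16.5% of all tested genes were called (8.22% higher and 8.31% lower). In Q kidneys the same 3 markers were called, again lower in males, against 23.1% of all genes (11.9% higher and 11.2% lower). In R kidneys 2 of 10 were called, Havcr1 higher and Spp1 lower in males, against 14.1% of all genes (7.07% higher and 7.01% lower). At an unadjusted p under 0.05 the marker counts were 7 of 10 in WT, 3 of 10 in Q and 4 of 10 in R, and the shares of all genes 28.6%, 34% and 27.1%. The median log2 fold change of male over female over the 10 markers was -0.35 in Q, -0.12 in R and -0.53 in WT, and over all tested genes it was -0.022, -0.033 and -0.032.

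A comparison of males and females over the 3 genotypes, added after the data were seen, called 5 of 10 markers where 40.2% of all genes were called (18.9% higher and 21.3% lower). This count, too, is close to the share of all genes. Havcr1 was higher in males by 1.37 on the log2 scale (SE 0.302, edgeR adjusted p = 0.000531), with a lowest, median and highest level of 0.747, 2.06 and 5.14 CPM in males and 0.101, 0.778 and 2.04 CPM in females. Of the 15 males, 8 lay above all 13 females. The other 4 called markers were lower in males, Spp1 by -1.44 (SE 0.0641, edgeR adjusted p = 8.67e-18), C3 by -0.96 (SE 0.135, adjusted p = 1.35e-06), Vcam1 by -0.51 (SE 0.0869, adjusted p = 2.08e-05) and Clu by -0.34 (SE 0.0934, adjusted p = 0.00408). Below all 13 females lay 15 of 15 males for Spp1, 12 for Vcam1, 8 for C3 and 8 for Clu. The C3 count was set by female Q replicate 5, since without the 2 libraries that stand apart the lowest female had 16.2 CPM and 12 of 14 males lay below all females. Krt18 (-0.26, adjusted p = 0.0676), Sox9 (-0.48, 0.152), Cdkn1a (-0.20, 0.259), Lcn2 (-0.09, 0.734) and Krt20 (0.19, 0.781) were not called by edgeR. With voom, Krt18 (-0.32, adjusted p = 0.00309) and Sox9 (-0.73, adjusted p = 0.0206) were called lower in males as well, and DESeq2's Wald test called neither. Leaving out female WT replicate 2 or the 2 libraries that stand apart kept all 5 calls. Krt18 became a sixth call, lower in males, without the 2 libraries that stand apart (-0.31, edgeR adjusted p = 0.0304) and without male WT replicate 2 (-0.35, adjusted p = 0.00394).

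**Figure D2:**
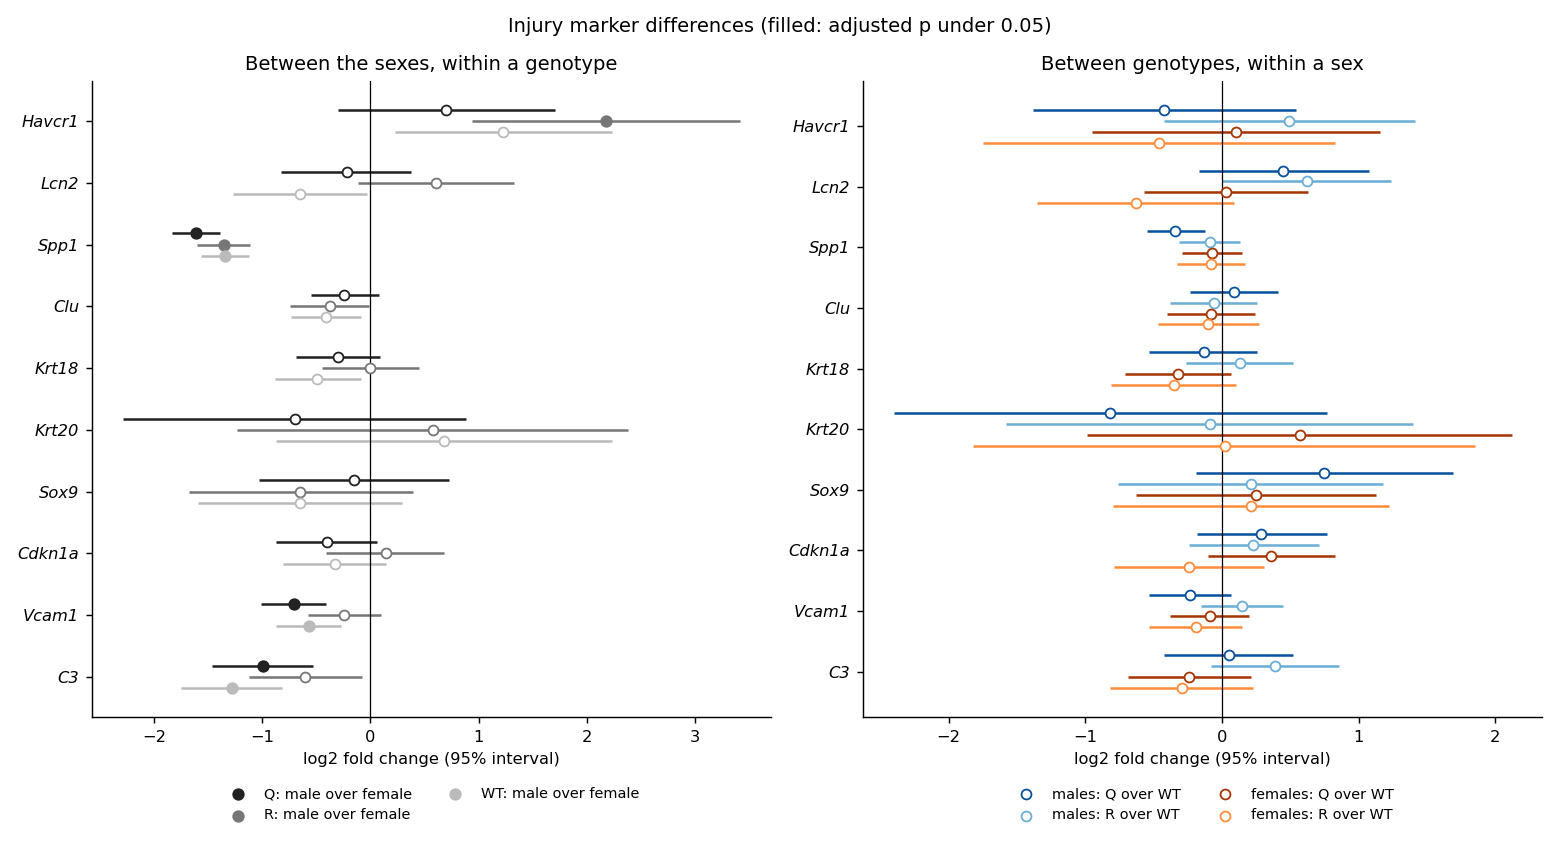
Log2 fold changes of the 10 markers with 95% intervals (x axis), male over female within Q, R and WT (left) and Q or R over WT within a sex (right), with filled points where the edgeR adjusted p was under 0.05. Filled points are Spp1 in all 3 genotypes, Vcam1 and C3 in Q and WT, and Havcr1 in R, and no genotype comparison has one.

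The cell type lists also differed between the sexes. Of all tested genes, 8.22% were called higher and 8.31% lower in WT males, and the list counts were not tested against these shares. Genes of the differentiated proximal tubule summed to 19600 to 23300 CPM in males and 14100 to 19700 CPM in females, and without the 2 libraries that stand apart the females had 17300 to 19700 CPM. In WT, 5 of 12 of them were called higher in males and 0 lower. Lrp2, a gene of this list, was called lower in males in Q and R. Those of the thick ascending limb, where Spp1 is also made, summed to 3100 to 5860 CPM in males and 5830 to 8080 CPM in females, with 2 of 5 tested genes called lower in WT males. Without those 2 libraries the male sums were 4420 to 5860 CPM. Intercalated cell genes did not overlap, at 199 to 276 CPM in males and 277 to 425 CPM in females. In WT, podocyte genes were called lower in males in 5 of 5 cases, stroma genes in 4 of 6, endothelial genes in 3 of 7 and macrophage genes in 2 of 9, and none of these lists had a gene called higher. Endothelium, a source of Vcam1, summed to 327 to 366 CPM in male WT and 354 to 418 CPM in female WT kidneys. In bulk tissue fewer cells of a type and less RNA per cell cannot be told apart, and the part of cell composition in the marker differences was not tested.

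Genes related to the markers were described from lists chosen with earlier results of these data known. In each genotype comparison and in both tests of a genotype effect that differs between the sexes, edgeR called 0 genes of each of the 7 lists. Among the genes with the smallest p of their lists were Il34, a growth factor for macrophages, at 0.53 for Q over WT in males (SE 0.142, edgeR adjusted p = 0.795), and Cxcl1, a neutrophil chemokine, at 1.11 for R over WT in males (SE 0.397, adjusted p = 1). Ccn2, a matrix-bound growth factor induced in fibrosis, was 0.71 for Q over WT in females (SE 0.207, edgeR adjusted p = 1).

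Between the sexes, the lists of related genes moved in both directions. Of all tested genes, 8.22% were called higher and 8.31% lower in WT males, 11.9% and 11.2% in Q, and 7.07% and 7.01% in R. The counts of related genes given from here on were not tested against these shares, and several are close to them. Of 13 tested acute injury and stress genes, 1 was higher and 2 lower in WT males. Hmox1, which degrades haem, had 31.6 ± 8.28 CPM in male WT and 17.1 ± 1.45 CPM in female WT kidneys (SD, n = 5 each), higher in males by 0.88 on the log2 scale (SE 0.191, edgeR adjusted p = 0.00126). The fibrinogen chains Fgb (-1.35, SE 0.304, adjusted p = 0.00187) and Fgg (-0.49, SE 0.16, adjusted p = 0.0315) were lower in males. The Q counts were 3 higher and 2 lower, and the R counts 2 higher and 1 lower, with Hmox1 higher and Fgb lower in each, and Tnfrsf12a, the receptor of TWEAK, higher in males in Q (0.51, edgeR adjusted p = 0.00634) and R (0.86, adjusted p = 0.00035).

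Of 15 failed repair and chemokine genes, Il34 was the largest difference, at 24.6 ± 5.73 CPM in male WT and 5.87 ± 0.984 CPM in female WT kidneys (SD, n = 5 each), with a male over female value of 2.07 (SE 0.154, edgeR adjusted p = 9.75e-12). It was higher in males in Q (2.42) and R (2.13) as well, and Cxcl1 was higher in males in Q (1.31, edgeR adjusted p = 0.0202) and R (1.51, adjusted p = 0.0331). Dcdc2a, a doublecortin family gene, was lower in WT males (-0.51, edgeR adjusted p = 0.0422), and Nfkb1 was lower in Q males (-0.37, adjusted p = 0.0215). In all, 1 gene was higher and 1 lower in WT, 2 and 1 in Q, and 2 and 0 in R.

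Of 14 simple epithelial and progenitor genes, 0 were higher and 6 lower in WT males, 1 higher and 5 lower in Q, and 0 higher and 1 lower in R. Prom1, the surface protein CD133 of renal progenitors, had 62.1 ± 8.03 CPM in male WT and 169 ± 24.5 CPM in female WT kidneys (SD, n = 5 each), with a male over female value of -1.44 (SE 0.113, edgeR adjusted p = 3.49e-11). The next by adjusted p in WT were Cd24a at -0.41 (SE 0.0801, edgeR adjusted p = 0.000336), Anxa1 at -0.54 (adjusted p = 0.00389) and Sox4 at -0.52 (adjusted p = 0.00837). Prom1 was lower in males in Q (-1.75) and R (-1.81) too. The gene higher in Q males was Krt8, the partner of Krt18, at 0.32 (SE 0.106, edgeR adjusted p = 0.029), whereas Krt18 itself was -0.30 there (SE 0.19, adjusted p = 0.277).

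Of 12 tested complement genes, the WT count was 1 higher and 4 lower in males, the Q count 1 and 5, and the R count 1 and 1. Cfi, the protease that inactivates C3b, was lower in males like C3, with 3.95 ± 0.555 CPM in male WT and 6.92 ± 1.19 CPM in female WT kidneys (SD, n = 5 each), with a male over female value of -0.81 (SE 0.171, edgeR adjusted p = 0.000966). C1ra (-0.60, adjusted p = 0.00208) and C1s1 (-0.38, adjusted p = 0.0229), proteases of the classical pathway, were also lower. Cd55, which speeds the decay of the C3 convertase on cells, was higher in males, at 0.89 in WT (SE 0.186, edgeR adjusted p = 0.000868), 1.11 in Q and 0.95 in R.

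Of 11 tested p53 target and arrest genes, 2 were higher and 0 lower in WT males, Ccng1 (0.42, SE 0.0927, edgeR adjusted p = 0.00147) and Zmat3 (0.44, SE 0.118, adjusted p = 0.00797). Ccng1 was also higher in Q (0.27, edgeR adjusted p = 0.0322), and 0 genes were called in R, where Zmat3 (0.32, adjusted p = 0.12) came nearest. Cdkn1a, their fellow target, was -0.40 in Q, 0.14 in R and -0.33 in WT and was not called. Of 12 proliferation genes 0 were called in WT or R, and Ccnb2 was higher in Q males (0.92, SE 0.31, edgeR adjusted p = 0.0298). Of 14 tested ligands, receptors and regulators of the markers, 0 were higher in males in any genotype, while 1 was lower in WT, 3 in Q and 4 in R. Cebpd, a transcription factor of the acute phase, was lower in males in each, with 7.05 ± 1.34 CPM in male WT and 21.6 ± 10.5 CPM in female WT kidneys (SD, n = 5 each), with a male over female value of -1.62 (SE 0.34, edgeR adjusted p = 0.00121). Itgav, the integrin chain that binds osteopontin, was lower in males in Q (-0.53, edgeR adjusted p = 0.00423) and R (-0.52, adjusted p = 0.0202), as was Lrp2, the megalin receptor that takes up NGAL, in Q (-0.38, adjusted p = 0.0489) and R (-0.70, adjusted p = 0.00238).

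Within a group, the markers varied together only in part. Deviations of log2 CPM from the group means were correlated over the 28 libraries for 45 pairs of markers, with permutation within groups and adjustment over the pairs. Spp1 and Krt20 had r = 0.75 (permutation adjusted p = 0.0268) and rho = 0.68 (adjusted p = 0.0684). Without the 2 libraries farthest from the median deviation of Spp1, r was 0.66. These libraries were picked by Spp1 alone, not by Krt20. Krt18 and Krt20 had r = 0.61 (permutation adjusted p = 0.0268) and rho = 0.51 (adjusted p = 0.222). Without the 2 libraries farthest from the median deviation of Krt18, r was 0.43. No other pair passed, the next being Lcn2 with Cdkn1a at r = 0.62 (permutation adjusted p = 0.0694), rho = 0.49 (adjusted p = 0.257) and Clu with Krt18 at r = 0.65 (adjusted p = 0.102), rho = 0.37 (adjusted p = 0.454). By rank no pair passed, and 0 pairs remained called when any of 5 libraries was left out, namely male WT replicates 2, 3 and 4, male R replicate 5 and female Q replicate 1.

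The clearest relations were with genes of other kidney cells. Of 150 pairs of a marker and a cell type list, 4 passed. Clu followed the summed principal cell genes with r = 0.82 (permutation adjusted p = 0.00075) and rho = 0.75 (adjusted p = 0.006). Its r was 0.77 without the 2 libraries farthest from the median deviation of Clu and 0.78 without the 2 that stand apart. Krt18 followed the urothelial genes with r = 0.83 (permutation adjusted p = 0.00075) and rho = 0.77 (adjusted p = 0.006). Its r was 0.74 without the 2 libraries farthest from the median deviation of Krt18 and 0.82 without the 2 that stand apart. These 2 pairs passed by r and by rank. Krt18 with the thin limb and inner medulla (r = 0.65, permutation adjusted p = 0.0335, rho = 0.56, adjusted p = 0.102) and Krt20 with the urothelium (r = 0.64, adjusted p = 0.0435, rho = 0.62, adjusted p = 0.102) passed by r only. Without the 2 libraries farthest from the median deviation of the marker, their r was 0.46 and 0.54. The other 7 markers, Havcr1, Vcam1 and C3 among them, passed with no list. Spp1 with the thick ascending limb had r = -0.14 (permutation adjusted p = 0.772), and Vcam1 with the endothelium r = 0.39 (adjusted p = 0.396).

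**Figure D3:**
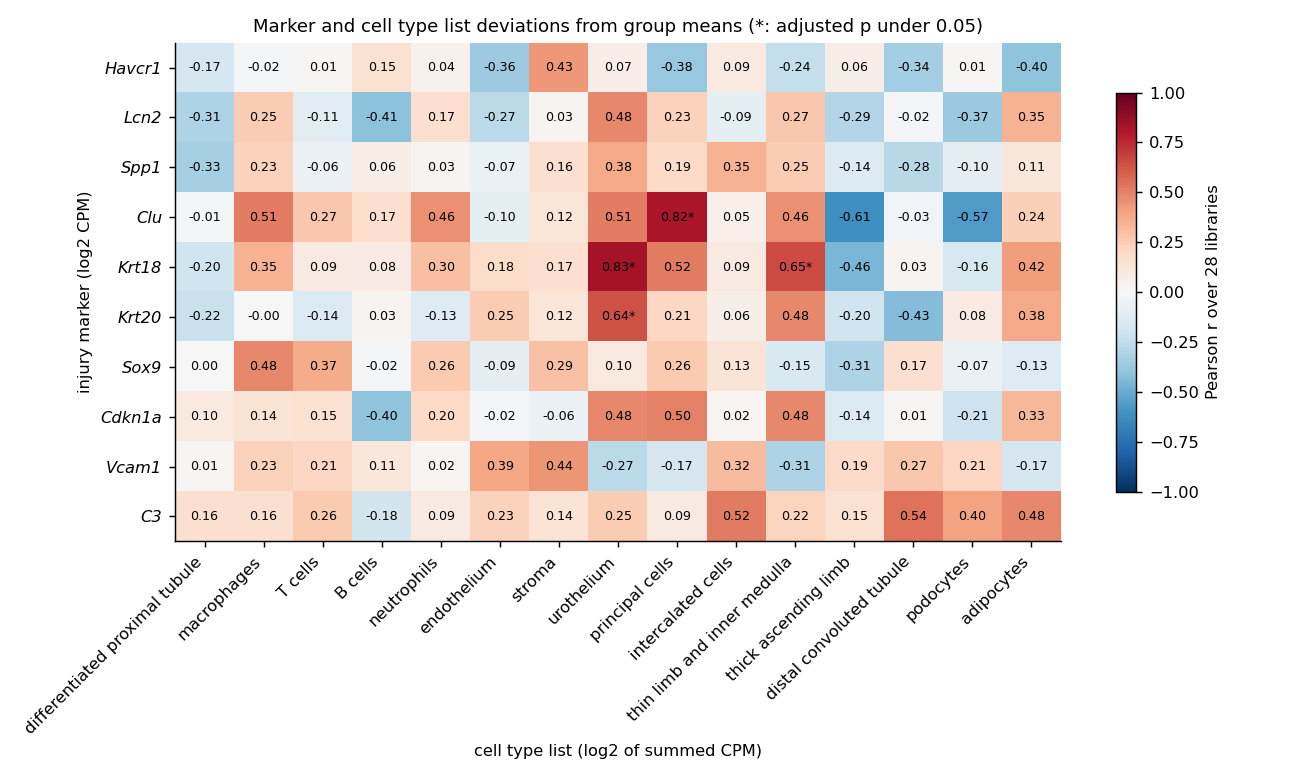
Pearson r over 28 libraries between the deviations of each marker (rows, log2 CPM) and of each cell type list (columns, log2 of summed CPM) from their group means, red for positive and blue for negative, with a star where the permutation adjusted p was under 0.05. The stars are on Clu with principal cells (0.82), Krt18 with urothelium (0.83) and with thin limb and inner medulla (0.65), and Krt20 with urothelium (0.64).

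Some libraries were high or low in many markers of their group, with and without high urothelial genes. Each marker has a highest and a lowest library in every group, and the counts below were not tested against chance. Male WT replicate 2 was the highest of its group in 8 of 10 markers and had 64.5 CPM of urothelial genes, where the group ran from 24.4 to 64.5 CPM. Female Q replicate 2 was highest in 5 markers, with 66.2 CPM of urothelial genes in a group that ran from 29.8 to 66.2 CPM. Male R replicate 5 was highest in 5 markers and lowest in 3, with 52 CPM of urothelial genes in a group that ran from 26.4 to 52 CPM. Male Q replicate 4 was highest in 4 markers, Clu and Krt18 among them, and lowest in Havcr1, Spp1 and Vcam1. It had 869 CPM of principal cell genes in a group that ran from 470 to 869 CPM. Female WT replicate 2, the library whose label was not matched by Xist, was highest in 5 markers and had 41.3 CPM of urothelial genes, the lowest of a group that ran to 69.5 CPM. Among the 3 female R libraries, replicate 1 was highest in 6 markers with 46.1 CPM of urothelial genes, and replicate 2 was lowest in 6 with 29.7 CPM. At the other end, female Q replicate 4 was lowest of its group in 7 markers, with 29.8 CPM of urothelial genes, and male WT replicate 1 in 6, with 34.5 CPM, the median of its group. The part of sampled papilla, pelvis or collecting duct in the marker levels was not tested.

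**Figure D4:**
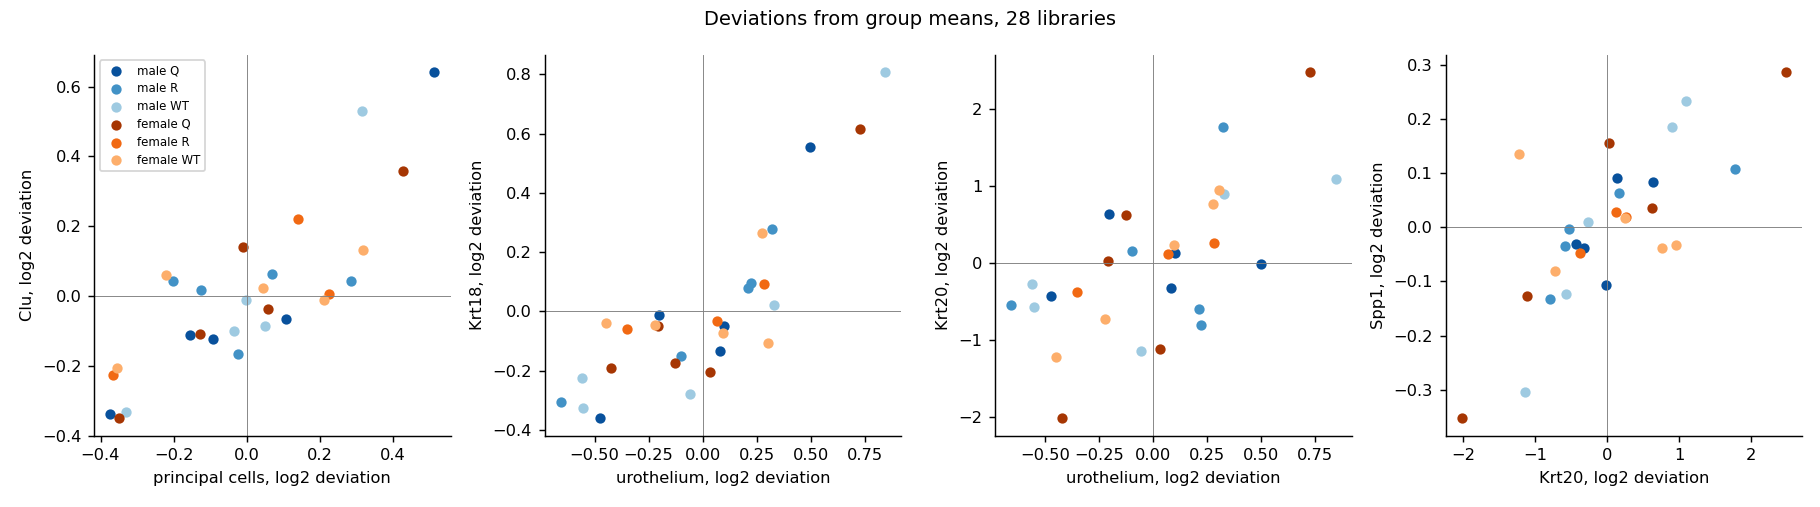
Deviations of log2 CPM from the group mean in each of 28 libraries, with 1 colour per group, for Clu against principal cell genes, Krt18 and Krt20 against urothelial genes, and Spp1 against Krt20. Points rise along both axes in each panel (r = 0.82, 0.83, 0.64 and 0.75), and the points farthest right in the urothelial panels are male WT replicate 2 and female Q replicate 2.

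The genes most like each marker by the same deviations were sought among 12885 tested genes averaging 1 CPM or more, and are given as a description with no test. Those nearest to Krt20 were Upk1b (r = 0.78), Bspry (0.78) and Krt5 (0.77), and those nearest to Krt18 were S100a6 (0.85), Phgdh (0.83) and Muc1 (0.80). Clu was nearest to Hhatl (0.88), Dlgap4 (0.87) and Bcam (0.87), and Vcam1 to genes that included Fbln5 (0.73) and Gbp10 (0.71). Spp1 was nearest to Pdhb (0.74), Cd9 (0.73) and Gatm (0.72), Sox9 to Klf6 (0.74), Tgfbi (0.72) and Pou2f2 (0.69), and C3 to Zfp617 (0.77), Crat (0.75) and Cd300ld (0.73). Havcr1 was nearest to Asah1 (0.71), Hopx (0.69) and Pex13 (0.67), Lcn2 to Svop (0.72), AI662270 (0.68) and Tnfrsf25 (0.67), and Cdkn1a to Nfil3 (0.71), Leo1 (0.70) and Spire2 (0.69). The gene nearest to Krt20, Upk1b, and the third, Krt5, are on the urothelium list.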

How the data were processed

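Raw counts of fragments per gene, as deposited by the authors, were used with no scaling of their own. Per the file headers they came from featureCounts 2.0.1 on the Ensembl 107 annotation of GRCm39, with no strand option. The submitters' processing notes name, in addition, SAMtools 1.6, Trim Galore 0.6.7 and DESeq2 1.38.3, and the aligner is not given in the sources used here. Without strand, reads of overlapping antisense genes cannot be told apart. Samples were grouped by the sex and genotype labels. Symbols (52073 of 56748 genes matched) and exon lengths came from GENCODE on GRCm38, matched by identifier, and promoters from RefSeq.

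Counts were analysed with edgeR 4.0.16 in R 4.3.3: filterByExpr (17573 genes, 99.91% of counts), TMM scaling, 1 mean per group over 28 libraries (22 residual degrees of freedom) and the robust quasi-likelihood test. P-values were adjusted by Benjamini-Hochberg over all tested genes and called under 0.05. Sex contrasts are male over female, and comparisons over both sexes average the male and female contrasts. CPM are TMM-scaled. SE is the absolute log2 fold change over the square root of F. Correlations used log2 CPM with a prior count of 2, 100000 two-sided permutations within groups, and scipy 1.17.1.

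The markers, the related gene lists and the tests were chosen with earlier results of these data known. All 10 markers were tested in every comparison. Named besides them were, of each list up to 4 called genes by smallest adjusted p (up to 2 by p where none passed), and Il34, Cxcl1 and Ccn2 after their genotype values were seen. Near genes are the 3 with the highest r, leaving out Gm, Rik, mitochondrial and marker genes and pseudogenes, and 1 of them is not reported here. Alternatives were DESeq2 1.42.0 size factors and Wald test, voom with quality weights (limma 3.58.1), no filter, a replicate block, the library code, only the compared groups, library totals without scaling, and leaving out libraries. No libraries of a group agreed within sampling noise (chi-square per degree of freedom at least 5.95). On simulated counts for Q against WT in males (17187 genes), 95% of 100 log2 changes of 1 and 45% of 100 changes of 0.5 were called, with 8 false calls. The changed genes were drawn above a mean level that Havcr1, Lcn2, Krt20 and Sox9 did not reach, so these rates do not cover those markers. For the other markers the rates are also too high a guide. All changes were planted at once, which eases the adjusted threshold, whereas the real comparison of Q against WT in males called 0 genes. The chance of calling a single changed marker was not simulated.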

Additional observations from a re-analysis of the deposited data

Results flagged for a closer look

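Of 50 tests of a marker within a group of 5 libraries, 9 found a library set far from the others. The nominal rate of 5% assumes independent values with a normal spread. These tests share libraries and some rest on few counts, so an excess over chance cannot be read from them. Krt18 accounted for 3, each a library high in its group. Male WT replicate 2 had 36.0 CPM (the others 16.3 to 20.8), female Q replicate 2 had 36.1 CPM (20.4 to 22.8) and female WT replicate 1 had 36.1 CPM (27.8 to 29.2). Their urothelial genes summed to 64.5, 66.2 and 68.2 CPM. Female WT replicate 5 had a higher urothelial sum, 69.5 CPM, and the lowest Krt18 of its group, 27.8 CPM. Krt20 stood out at 2.33 CPM in female Q replicate 2 (0 to 0.566 in the others) and at 1.94 CPM in male R replicate 5 (0.236 to 0.56), a library with 52 CPM of urothelial genes.

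Clu stood out at 341 CPM in male Q replicate 4 (173 to 209 in the others), which also had the highest principal cell sum of its group at 869 CPM, and low at 179 CPM in male R replicate 5 (204 to 210). Lcn2 stood out at 4.25 CPM in male WT replicate 2 (1.41 to 1.96). Havcr1 stood out at 5.14 CPM in male R replicate 3 (1.99 to 2.65), and without this library the R difference between the sexes was still called. The part of urothelium or collecting duct in these values was not tested.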

How the results depend on the processing

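Of 1494 log2 fold changes of the markers under alternatives other than leaving out 1 library, none reversed a called direction, and 1 call was lost and 24 were gained. In WT the count of markers that differed between the sexes was 3, and it was 5 with library totals and 7 with voom, and 3 to 6 over the leave-one-out fits, with 6 without male WT replicate 2. In Q it was 3, and 6 with library totals (3 to 4 over leave-one-out). In R it was 2, and 4 with library totals, 1 with no filter, and 1 to 2 over leave-one-out, with 1 without female R replicate 1. Over the 3 genotypes it was 5, and 8 with library totals (5 to 6 over leave-one-out). Voom added Krt18 and Sox9 over the 3 genotypes, and Clu in R. With the main settings 16.5% of all genes were called in WT, 23.1% in Q, 14.1% in R and 40.2% over the 3 genotypes. The shares under the other settings, the replicate block among them, are not given here, so the counts under them do not single out the markers. Library totals, chosen after seeing the data, shifted the median log2 fold change of male over female over all genes to -0.219 in Q, -0.177 in R and -0.169 in WT, against -0.022, -0.033 and -0.032 with TMM. Of all genes called, 20.1%, 25.6% and 23.8% were then higher in males, against 51.6%, 50.2% and 49.7%. Relative to the median of all genes, Spp1 over the 3 genotypes was -1.40 under either scaling, and Havcr1 was 1.42 with library totals and 1.41 with TMM.

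The 2 called pairs of markers became 1 with a prior count of 0.5, 0 by Spearman's rho and 0 to 3 over leave-one-out. The 4 called pairs of a marker and a cell type list became 2 by Spearman's rho and 2 to 5 over leave-one-out. Replicate numbers did not pair the libraries: 5 of 65 same-numbered pairs had r over 0.1, with a median of 0.00573. With the replicate block, 5 pairs of markers were called, the counts of markers that differed between the sexes were 4 in WT, 3 in Q and 2 in R, and 0 markers differed between genotypes. Low counts limit Havcr1, Krt20 and Sox9, and 3 libraries limit female R.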
